A study of Mus musculus with 2 samples.

Results

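Chemokines are small secreted proteins that guide leukocytes along gradients, and their receptors are G protein-coupled receptors on the migrating cells. The genes described here are the mouse chemokine and chemokine receptor genes, taken by symbol: Ccl, Cxcl, Ccr, Cxcr or Ackr followed by a number with any letter suffix, together with Cx3cl1, Cx3cr1, Xcl1 and Xcr1. Of 22180 genes named by a probe set of their own, 55 met this rule, 34 of them ligands and 21 receptors. Ccr1l1, whose suffix holds a second number, was left out, with log2 signals of 3.34 after papain and 3.24 after PBS. The ligands Ppbp and Pf4, with symbols of another form, were also left out and are given with the chemokine-related genes.

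RNA came from the nasal mucosa of C57BL/6 mice aged 4 to 6 weeks, collected at day 3. The first group had been instilled with papain, a plant cysteine protease used to model protease allergens, and the second with phosphate-buffered saline (PBS), the vehicle. A single Affymetrix Mouse Gene 2.0 ST array was hybridised for each condition. The design text speaks of 4 samples pooled into a specimen, without saying whether that holds for each array, so the spread between animals is not seen. Having 1 array on either side, the ratios carry no test and no check by replicates, and whether the groups overlap cannot be said. The number of arrays limits the precision.

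Ligands fall into classes by the spacing of their first cysteines (CC, CXC, CX3C and XC), and receptors are named for the class they bind. CXC ligands that carry a glutamate-leucine-arginine motif attract neutrophils through Cxcr2, eotaxins attract eosinophils through Ccr3, and monocyte chemoattractant proteins recruit monocytes through Ccr2. Atypical receptors (Ackr) bind chemokines without driving migration and serve as scavengers or carriers. In airway mucosa, epithelium, resident macrophages and stromal cells all produce chemokines, some constantly and some only on stimulation.

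Values are log2 array signals, and each ratio is the papain value minus the PBS value. The error available for a ratio is that of the probe sets: within 1073 genes that have several, a single log2 ratio had an SD of 0.33, which holds no spread between animals. A background level of 5.23 was taken as the median signal, over both arrays, of 29 genes of other tissues, and 95% of their values lay under 7.20. A ratio with a signal under 5.23 compares array signals and is no measure of the fold in transcript, and a ratio whose lower signal is under 7.20 is of uncertain size. Each probe set has its own affinity, so array signals of different probe sets do not rank amounts of transcript. The background level, the summed signals and the choice of the brightest members rest on array signals alone. In these bulk specimens, fewer cells of a type and less RNA per cell cannot be told apart.

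Markers of the labelled tissue were bright in both arrays. The 5 measured epithelial markers had a median log2 signal of 10.24 after papain and 10.33 after PBS, and 5 olfactory neuron markers had 9.46 after papain and 9.93 after PBS. The 5 olfactory neuron markers were all lower in the papain array, with a median log2 ratio of -0.44, and so were the 5 markers of ciliated cells, with a median of -0.54. The widest gap was in markers of vomeronasal neurons, which belong to a neighbouring sense organ. All 6 of these were higher in the papain array, with a median signal of 7.70 after papain and 5.40 after PBS and a summed signal on the log2 scale of 11.14 after papain and 10.35 after PBS. Only 3 of the 6 had both signals at background level or above. Calr4, H2-M10.5 and H2-M1, with the largest ratios, had PBS signals under it. The part of these differences between the specimens in the chemokine ratios was not tested, and no result can be given without either array.

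Promoters are shown for 7 members, as the 250 bases before the transcription start in RefSeq (GRCm38.p6). Cxcr2 is shown as the single member past 2-fold and Ccl8 as the member just short of it. Cxcl1, Cxcl2, Cxcl3, Ccr3 and Ccl17 are shown because their windows hold a searched motif. Capitals mark a match to the NF-kB letters GGGAATTTCC, taken as they stand in the Cxcl1 window, or, in Ccl17, to the STAT6 letters TTC and GAA with any 4 bases between them. Both strands were searched, no matches overlapped, and both motifs were chosen with the ratios known.
Cxcr2, chr1:74153744-74153993, strand +: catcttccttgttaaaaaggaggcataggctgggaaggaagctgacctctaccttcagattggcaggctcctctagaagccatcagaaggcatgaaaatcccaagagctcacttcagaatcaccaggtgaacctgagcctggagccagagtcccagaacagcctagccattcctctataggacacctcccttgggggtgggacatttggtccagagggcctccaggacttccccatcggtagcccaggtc
Ccl8, chr11:82114935-82115184, strand +: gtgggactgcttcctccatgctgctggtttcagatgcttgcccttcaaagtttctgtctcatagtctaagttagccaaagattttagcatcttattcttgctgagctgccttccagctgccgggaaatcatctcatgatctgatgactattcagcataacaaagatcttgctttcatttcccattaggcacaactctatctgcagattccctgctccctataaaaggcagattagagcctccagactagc
Cxcl1, chr5:90890995-90891244, strand +: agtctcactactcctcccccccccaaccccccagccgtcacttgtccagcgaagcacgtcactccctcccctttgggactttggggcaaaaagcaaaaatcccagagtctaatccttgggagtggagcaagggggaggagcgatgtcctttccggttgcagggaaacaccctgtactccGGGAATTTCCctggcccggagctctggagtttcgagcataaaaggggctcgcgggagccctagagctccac
Cxcl2, chr5:90903649-90903898, strand +: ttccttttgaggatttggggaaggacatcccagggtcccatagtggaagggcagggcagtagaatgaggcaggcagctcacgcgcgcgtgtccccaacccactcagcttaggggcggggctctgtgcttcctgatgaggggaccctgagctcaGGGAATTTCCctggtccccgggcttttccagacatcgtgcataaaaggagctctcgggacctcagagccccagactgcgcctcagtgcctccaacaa
Cxcl3, chr5:90785851-90786100, strand +: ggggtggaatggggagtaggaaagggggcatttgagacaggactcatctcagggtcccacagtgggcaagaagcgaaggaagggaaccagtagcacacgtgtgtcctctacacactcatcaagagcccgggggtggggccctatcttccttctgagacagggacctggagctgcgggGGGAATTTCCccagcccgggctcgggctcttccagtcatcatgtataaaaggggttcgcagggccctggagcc
Ccr3, chr9:124021721-124021970, strand +: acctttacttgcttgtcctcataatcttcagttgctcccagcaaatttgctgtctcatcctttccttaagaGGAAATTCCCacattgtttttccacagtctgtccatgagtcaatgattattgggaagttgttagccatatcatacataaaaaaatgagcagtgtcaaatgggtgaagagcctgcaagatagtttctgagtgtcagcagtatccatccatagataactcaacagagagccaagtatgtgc
Ccl17, chr8:94810203-94810452, strand +: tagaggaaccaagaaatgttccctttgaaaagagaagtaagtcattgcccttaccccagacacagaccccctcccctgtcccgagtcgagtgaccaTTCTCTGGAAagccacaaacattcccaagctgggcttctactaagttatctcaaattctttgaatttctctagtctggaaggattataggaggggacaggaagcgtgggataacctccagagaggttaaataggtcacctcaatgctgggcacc
The NF-kB letters were in 28 of 32851 promoter windows of all genes (0.0852%). Counted by gene, they were in the windows of 28 of 27025 genes (0.104%) and of 4 of the 41 members that have a window, Cxcl1 among them by the choice of letters. These were the neighbouring neutrophil chemokine genes Cxcl1, Cxcl2 and Cxcl3, with the match on the gene's own strand 71, 97 and 73 bases before the start, and Ccr3, with the match on the other strand 179 bases before it. Members that lie side by side are similar in sequence, so the Cxcl2 and Cxcl3 matches are not independent of the Cxcl1 match. With the letters taken from Cxcl1, the member count cannot be set against the share of all genes. The STAT6 letters were in 5.85% of all windows and, counted by gene, in those of 6.76% of all genes and of 1 of the 41 members, Ccl17, at 154 bases. A match is a run of letters and not a shown binding site.

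**Figure D1:**
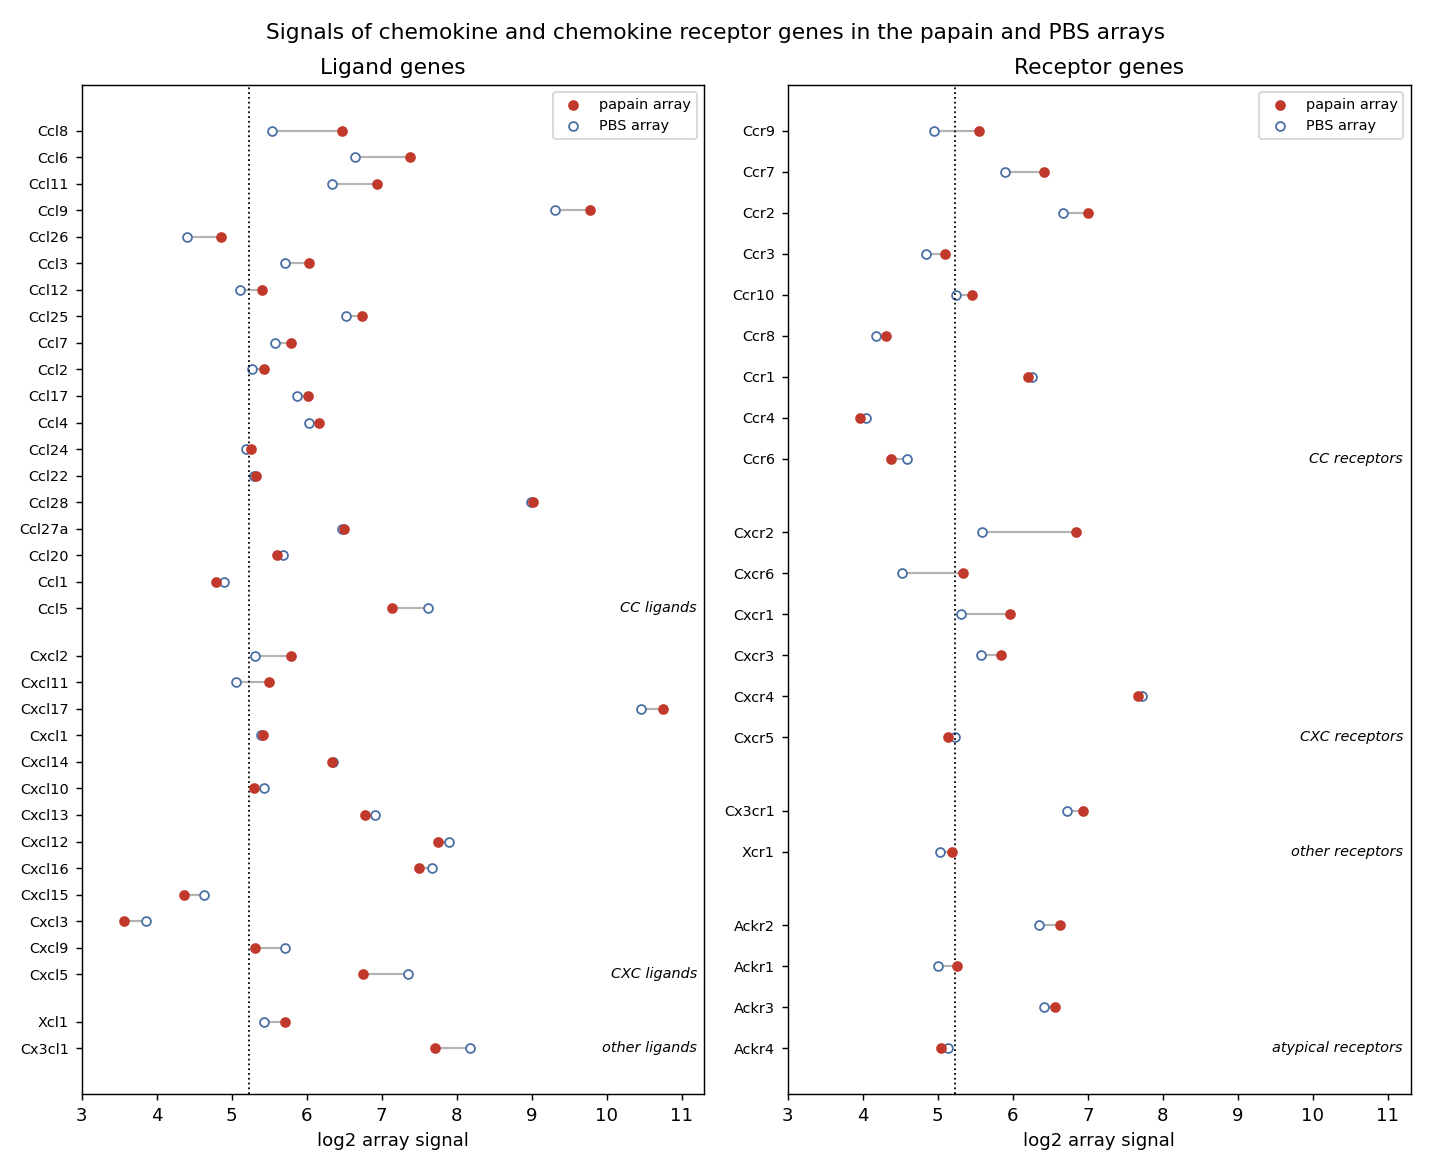
Log2 signal (x axis) of the 34 ligand genes (left) and 21 receptor genes (right), with the papain array as filled circles, the PBS array as open circles and the background level of 5.23 as a dotted line. Within each role group, named at its lowest row, genes run from the highest to the lowest ratio. Cxcr2 has the widest gap, at 6.85 after papain and 5.59 after PBS.

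Few chemokine genes differed strongly between the arrays. Of the 55 members, 1 was past 2-fold in the papain direction, which is 1.82% of them, against 1.83% of all named genes. None was past 2-fold in the PBS direction, against 0.730% of all named genes, and 0 were past 3-fold either way, against 0.924% higher and 0.158% lower of all named genes. At 1.5-fold, 7 members (12.7%) were higher, against 5.38% of all named genes, and 1 (1.82%) was lower, against 4.34%. The counts at 1.5-fold therefore stood above the background in the higher direction and under it in the lower one, while the count at 2-fold was at the background. Among the 38 members with both signals at background level or above, 5 (13.2%) were 1.5-fold higher and 1 (2.63%) lower, against 2.40% and 3.58% of named genes under the same condition. At 2-fold the count there was 1 higher and 0 lower, against 0.594% and 0.229%.

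The family as a whole sat slightly toward the papain array. In all, 36 members had ratios above 0 and 19 below, against 10113 above and 12066 below among all named genes. Of the 5760 named genes in the middle range of the members' signals, 2922 were above 0 and 2838 below. The median log2 ratio of the members was 0.15, while that of all named genes was -0.03 and that of those 5760 genes was 0.00. Past the probe set SD of 0.33 lay 13 members in the higher direction (23.6%) and 4 in the lower one (7.27%), against 14.4% and 17.0% of all named genes. For 7 members 1 of the signals was under background level, and 10 had both under it. In 7 members both signals were above 7.20.

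**Figure D2:**
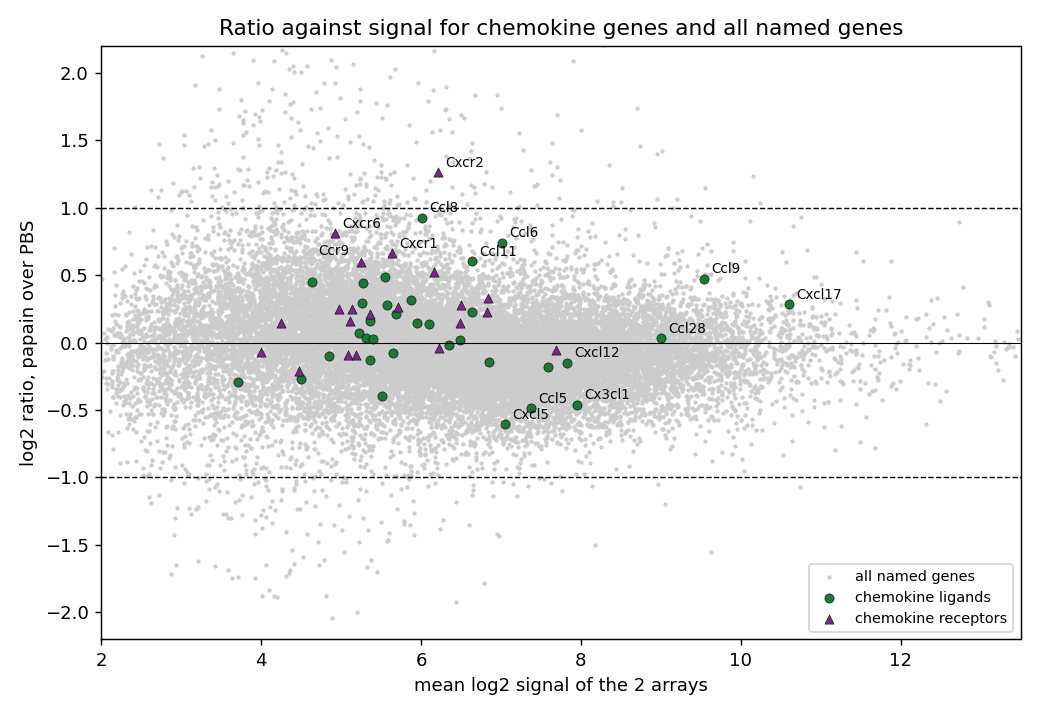
Log2 ratio of papain over PBS (y axis) against mean log2 signal of the 2 arrays (x axis) for all named genes (grey), chemokine ligands (circles) and receptors (triangles), with dashed lines at 2-fold. Outside the plotted range lie 153 named genes, none of them members. Among the members, Cxcr2 alone is above the upper line, at 1.26.

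Receptors and CC ligands had medians above 0, and CXC ligands had a median below it. The median log2 ratio was 0.16 for 19 CC ligands, with 16 above 0, and -0.14 for 13 CXC ligands, with 9 below 0. It was 0.46 for 6 CXC receptors, 0.21 for 9 CC receptors and 0.20 for 4 atypical receptors. These signs were the same under each alternative scaling, although the CXC ligand median was only -0.04 after a loess correction for signal. Cx3cl1 and Xcl1 went opposite ways, at -0.46 and 0.28. Xcl1, a product of NK and CD8 T cells, had 5.72 after papain and 5.44 after PBS. Their receptors Cx3cr1 and Xcr1 had ratios of 0.23 and 0.16.

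**Figure D3:**
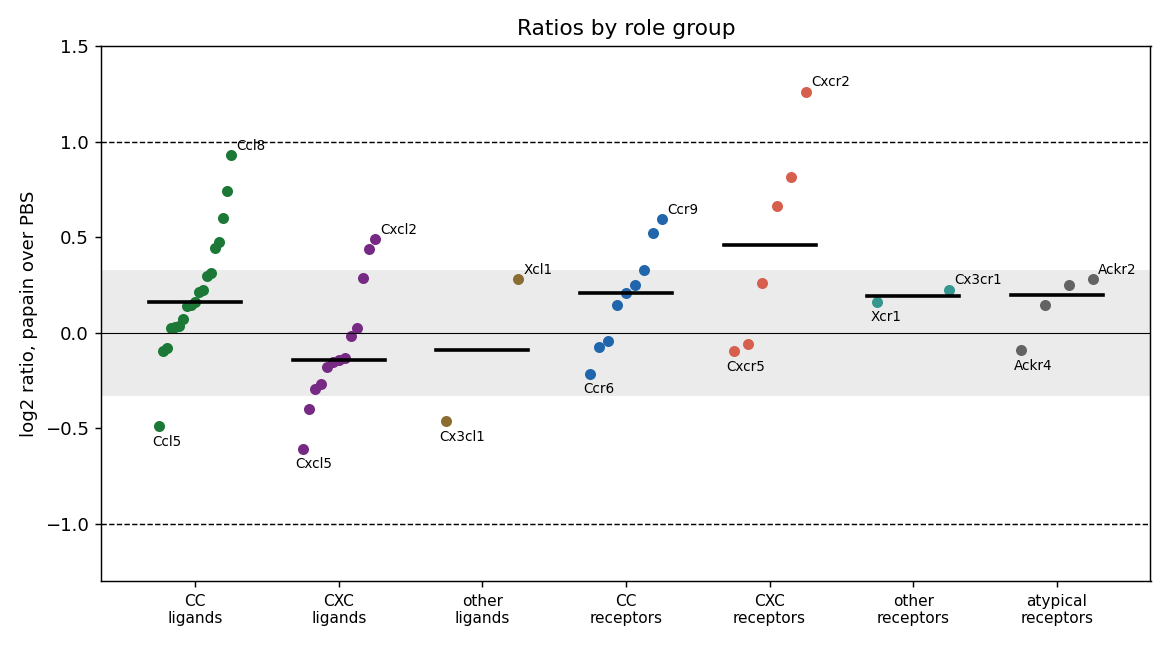
Log2 ratio of papain over PBS (y axis) of each member by role group (x axis), with the group median as a black bar, 2-fold as dashed lines and 1 SD of a probe set ratio, 0.33 either way, as a grey band. The CXC receptors have the highest median, 0.46, and the CXC ligands the lowest, -0.14.

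Among CC ligands, the genes with the highest ratios were Ccl8, Ccl6 and Ccl11. Ccl8, the mouse CCR8 agonist of allergic inflammation, had a log2 signal of 6.47 after papain, against 5.54 after PBS. Its ratio of 0.93 lay just short of 2-fold, as that of Cxcr2 lay just past it, and it was the second highest of the 55. Ccl6, a macrophage and eosinophil product of rodents that binds Ccr1, had 7.38 after papain and 6.64 after PBS, a ratio of 0.74. Ccl11, or eotaxin, the principal eosinophil attractant, had 6.94 after papain and 6.34 after PBS, a ratio of 0.60. All 3 were past 1.5-fold and past 1 SD of a probe set ratio, with PBS signals above background level but under 7.20.

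Other inflammatory CC ligands differed less. Ccl9, a Ccr1 ligand of macrophages, had 9.78 after papain and 9.30 after PBS, a ratio of 0.47 with both signals far above background. Ccl3 and Ccl4, the macrophage inflammatory proteins, had ratios of 0.31 and 0.14. The monocyte chemoattractant Ccl2 had 5.43 after papain and 5.28 after PBS, and its relatives Ccl7 and Ccl12 had ratios of 0.22 and 0.30. These signals were close to background level, and that of Ccl12 after PBS, at 5.11, was under it. Ccl5, a T cell and eosinophil attractant, went the other way, with 7.13 after papain and 7.62 after PBS, a ratio of -0.49 that was the lowest of the CC ligands.

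Other ligands of type 2 immunity had small ratios or signals under background. Ccl24, also an eotaxin, had 5.26 after papain and 5.19 after PBS, close to background level in both arrays. Ccl26 had a ratio of 0.45 between signals of 4.86 after papain and 4.41 after PBS, both under background. Ccl17 and Ccl22, which attract T helper 2 cells through Ccr4, had ratios of 0.15 and 0.04, within 1 SD of a probe set ratio. The Ccl17 signals were 6.02 after papain and 5.87 after PBS, and those of Ccl22 were 5.33 after papain and 5.29 after PBS.

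Epithelial and homeostatic CC ligands also stayed within that SD. Ccl28, a mucosal epithelial chemokine that attracts antibody-secreting cells through Ccr10, had 9.02 after papain and 8.99 after PBS. Ccl20, the Ccr6 ligand of epithelium, had 5.61 after papain and 5.69 after PBS. Ccl25, the Ccr9 ligand known from gut and thymus, had 6.74 after papain and 6.52 after PBS. Outside these classes, the Ccr8 ligand Ccl1 had a ratio of -0.10 with both signals under background.

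Ccl27a, a skin-associated Ccr10 ligand, was the 1 member with several probe sets. Its brighter probe set had 6.49 after papain and 6.47 after PBS, a ratio of 0.02, and the dimmer one had 4.82 after papain and 5.57 after PBS, a ratio of -0.75. The brighter probe set held the same values as 2 transcript clusters that name further genes as well, so its signal cannot be assigned to Ccl27a alone. Transcript clusters that name several genes at once were not members, but they carry the other copies of this locus. In 11 of them that include a Ccl27 copy, ratios ran from -0.17 to 0.15.

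The lymphoid chemokines Ccl19 and Ccl21, which guide dendritic and T cells through Ccr7, were likewise measured only by clusters of 5 to 10 gene names. All 9 clusters that include a Ccl21 copy were lower in the papain array, with signals from 9.11 to 9.65 after papain and from 9.51 to 10.14 after PBS and ratios from -0.49 to -0.41. These 9 held only 5 distinct pairs of values and are not independent. Ccl21 is made by lymphatic endothelium, and the 5 markers of that cell type had a median ratio of -0.06, with 4 below 0 and a range from -0.65 for Flt4 to 0.26 for Lyve1. The part of these cells in the Ccl21 ratios was not tested. The 13 clusters that include Ccl19 had ratios on both sides of 0, from -0.30 to 0.47.

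Among the members, CXC ligands that attract neutrophils gave no common direction. Cxcl5, an epithelial neutrophil attractant, had 6.75 after papain and 7.35 after PBS, a ratio of -0.61 that was the lowest of all 55 members and the single one past 1.5-fold lower. It was short of 1.5-fold, at -0.55, -0.57 and -0.48, after quantile normalization, with the median ratio set to 0 and after loess. Cxcl2 was on the other side, with 5.79 after papain and 5.31 after PBS, a ratio of 0.49. Cxcl1 was level, with 5.41 after papain and 5.39 after PBS. Cxcl3, at -0.30, and Cxcl15, at -0.27, had both signals under background. Cxcl1, Cxcl2 and Cxcl3 all hold the NF-kB letters shown in capitals above, and their ratios were 0.02, 0.49 and -0.30.

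The interferon-inducible ligands of Cxcr3 also divided. Cxcl9 had 5.31 after papain and 5.71 after PBS, a ratio of -0.40, and Cxcl10 had 5.29 after papain and 5.43 after PBS, a ratio of -0.13. Cxcl11 had 5.49 after papain and 5.05 after PBS, a ratio of 0.44 with the PBS signal under background. The 3 genes are neighbours, and none was past 1.5-fold.

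The constitutive CXC ligands had small ratios. Cxcl17, a mucosal chemokine of airway epithelium, had 10.74 after papain and 10.46 after PBS, a ratio of 0.29. Cxcl12, the stromal ligand of Cxcr4 and Ackr3, had 7.75 after papain and 7.90 after PBS, and Cxcl16, the membrane-bound ligand of Cxcr6, had 7.49 after papain and 7.67 after PBS. Cxcl13, which attracts B cells through Cxcr5, had 6.77 after papain and 6.92 after PBS. Cxcl14 had 6.34 after papain and 6.35 after PBS. These 5 lay within 1 SD of a probe set ratio, and the signals of Cxcl13 and Cxcl14 were under 7.20. Cx3cl1, a membrane-bound chemokine of endothelium and epithelium, was lower, at 7.72 after papain and 8.18 after PBS, a ratio of -0.46.

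Among the markers of cells that make chemokines, the 6 fibroblast markers were all lower in the papain array, with a median log2 ratio of -0.49, a summed signal on the log2 scale of 13.48 after papain and 14.02 after PBS, and all above background. The 6 endothelial markers had a median of -0.11, with 5 below 0, and the 5 epithelial markers had -0.09. The part of these shifts in the ratios of Cxcl12, Cx3cl1 and Cxcl5 was not tested.

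The receptor with the highest ratio was Cxcr2, which carries neutrophils toward Cxcl1, Cxcl2 and Cxcl5. Its log2 signal was 6.85 after papain, against 5.59 after PBS, a ratio of 1.26 or 2.40-fold. Both signals were above background level but under 7.20, so the size of this ratio is uncertain. Cxcr2 was the 1 member past 2-fold, and its ratio stayed from 1.25 to 1.30 under each alternative scaling of the same 2 arrays. Cxcr1, the adjacent gene and a close relative of Cxcr2, had 5.97 after papain and 5.31 after PBS, a ratio of 0.66. How far probes of these related genes share signal was not tested.

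The Cxcr2 ratio was larger in size than that of any of 12 neutrophil markers. They had a median log2 ratio of 0.06, with 7 above 0 and 5 below, and none was past 2-fold. Retnlg, a neutrophil-secreted resistin-like protein, had 0.58 and Il1r2, a decoy interleukin-1 receptor, had -0.73. S100a8 and S100a9, the abundant calprotectin subunits of neutrophils, had 0.09 and 0.20, and Csf3r, the granulocyte colony-stimulating factor receptor, had -0.14. The summed signal on the log2 scale was 12.92 after papain and 12.73 after PBS, most of it from Ltf, which nasal glands also secrete. The defining marker Ly6g was under background in both arrays, as were Mmp8 and Camp. The part of neutrophils in the Cxcr2 ratio was not tested.

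Cxcr6, a receptor of resident T, NK and innate lymphoid cells, had 5.33 after papain and 4.52 after PBS. Its ratio of 0.81, the third highest of the members, compares a signal near background with one under it. The 6 NK markers had a median of 0.09 with 5 above 0, led by Gzma at 0.98 with both signals under background, and 7 T cell markers had a median of 0.03. The summed signal of the NK markers on the log2 scale was 8.0 after papain and 7.85 after PBS, and that of the T cell markers was 8.08 in both arrays, and the part of these cells in the Cxcr6 ratio was not tested. Cxcr3, the receptor of activated T cells, had 5.84 after papain and 5.58 after PBS. Cxcr4, the widely expressed Cxcl12 receptor, had 7.66 after papain and 7.72 after PBS. Cxcr5, the follicular homing receptor, had 5.13 after papain and 5.23 after PBS, with the papain signal under background.

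CC receptors with signals above background included those of monocytes and mature dendritic cells. Ccr7, the lymph node homing receptor, had 6.42 after papain and 5.90 after PBS, a ratio of 0.52. Ccr2, the Ccl2 receptor of inflammatory monocytes, had 7.0 after papain and 6.67 after PBS, a ratio of 0.33, while Ccr1 had 6.21 after papain and 6.25 after PBS. Ccr10 was near background level, with 5.46 after papain and 5.25 after PBS. Ccr9 had 5.55 after papain and 4.96 after PBS, a ratio of 0.59 with the PBS signal under background, which was short of 1.5-fold, at 0.52, after quantile normalization or loess. The 6 monocyte markers had a median ratio of -0.26, with 4 below 0, and 6 dendritic cell markers had -0.03, with 3 below 0. The summed signal of the monocyte markers on the log2 scale was 10.12 after papain and 10.46 after PBS, and all 6 were above background. The part of these cells in the receptor ratios was not tested.

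The remaining CC receptors were under background in both arrays. Ccr3, the eotaxin receptor, had 5.10 after papain and 4.85 after PBS, Ccr4 had 3.96 after papain and 4.04 after PBS, and Ccr6 had 4.37 after papain and 4.58 after PBS. Ccr8 had a ratio of 0.14. Of the 7 eosinophil markers, 4 were likewise under background in both arrays, among them Epx, the eosinophil peroxidase. Siglecf after PBS and Prg2 after papain were also under it. Alox15 was the 1 marker with both signals at background level or above. The median ratio of the 7 was 0.29, with 5 above 0. The summed signal on the log2 scale, most of it from Alox15, was 10.17 after papain and 9.75 after PBS. The part of eosinophils in the ratios of Ccl11 and Ccr3 was not tested.

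Cx3cr1, the fractalkine receptor of monocytes and tissue macrophages, had 6.94 after papain and 6.72 after PBS, and Xcr1, a marker of cross-presenting dendritic cells, had 5.19 after papain and 5.03 after PBS, both under background. The 9 macrophage markers had a median of 0.00 and a summed signal on the log2 scale of 10.73 after papain and 10.81 after PBS, and all 9 were above background. The macrophage-derived ligands Ccl6 and Ccl9 had ratios of 0.74 and 0.47, while the macrophage markers Cd68 and Adgre1 had -0.46 and 0.33. The part of macrophages in these ratios was not tested.

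Atypical receptors differed by less than 1 SD of a probe set ratio. Ackr2, which scavenges inflammatory CC chemokines, had 6.63 after papain and 6.36 after PBS. Ackr3, the Cxcl12 and Cxcl11 scavenger, had 6.56 after papain and 6.41 after PBS. Ackr1, the carrier of chemokines across venular endothelium and on red cells, had 5.26 after papain and 5.01 after PBS, the latter under background. Ackr4, which scavenges Ccr7 ligands, had 5.04 after papain and 5.13 after PBS, both under background.

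Known receptors and ligands were set side by side for 16 receptors and 28 ligands in 33 pairs. For Ccr2, the receptor at 0.33 and the ligands Ccl2, Ccl7 and Ccl12 at 0.16, 0.22 and 0.30 were all above 0. For Ccr3, the receptor at 0.25 stood beside Ccl11 at 0.60, Ccl24 at 0.07 and Ccl7 at 0.22, with Ccl5 at -0.49. For Cxcr2, the receptor at 1.26 stood beside ligands from -0.61 to 0.49. Of the 33 pairs, which share receptors and ligands, 18 had ratios of the same sign and 15 of opposite signs. The receptors Ccr3, Ccr4, Ccr6, Ccr8 and Xcr1 and the ligands Ccl1 and Cxcl3 were under background in both arrays. No share for receptors and ligands that are not partners was computed, so the count says nothing about pairing. Receptor and ligand went opposite ways, for example, for Cx3cr1 at 0.23 with Cx3cl1 at -0.46, and for Cxcr6 at 0.81 with Cxcl16 at -0.18. The ratios of Cx3cr1 and Cxcl16 lay within 1 SD of a probe set ratio, and the Cxcr6 signal after PBS was under background.

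**Figure D4:**
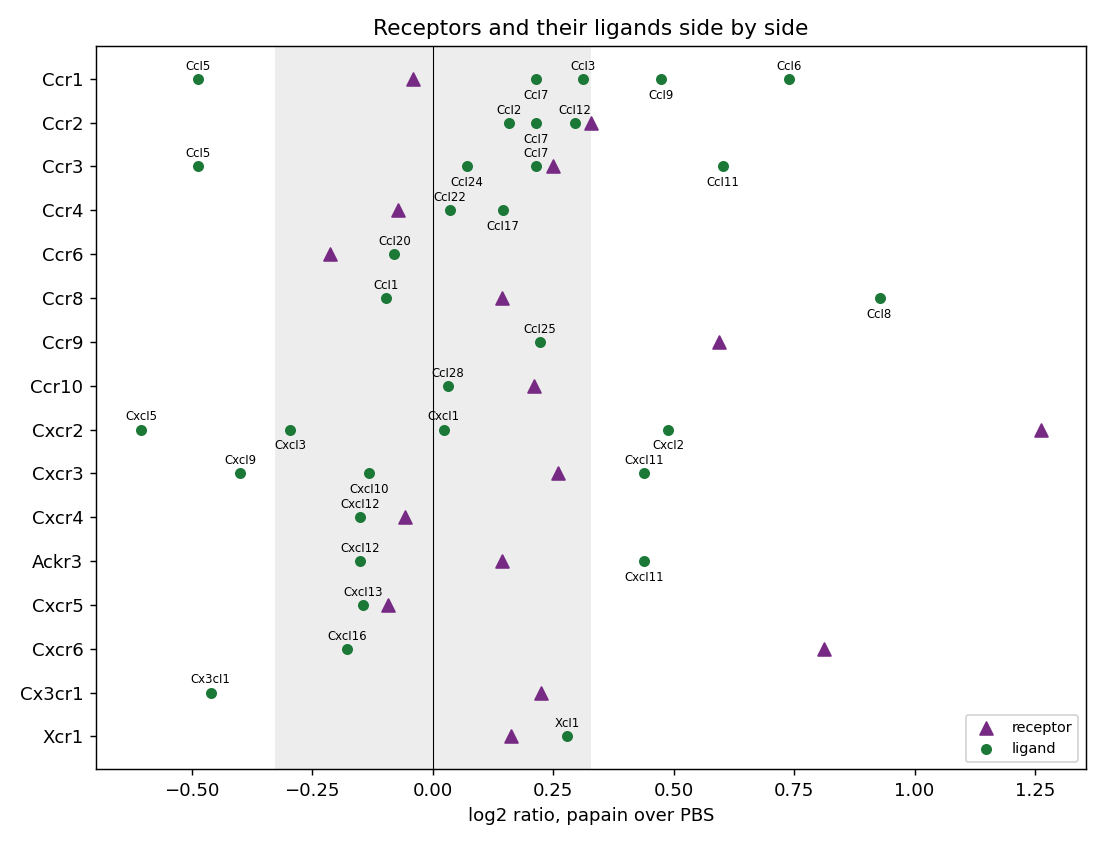
Log2 ratio of papain over PBS (x axis) of 16 receptors (triangles) and their ligands (circles), 1 receptor per row, with 1 SD of a probe set ratio, 0.33 either way, as a grey band. The Cxcr2 row is the widest, with the receptor at 1.26 and Cxcl5 at -0.61.

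Many chemokine genes lie side by side in the genome, and 34 of the 55 fell into 9 runs of neighbours, counted where at most 3 other entries of the RefSeq gene table lay between them. On chromosome 11, the run of Ccl2, Ccl7, Ccl11, Ccl12, Ccl8 and Ccl1 had 5 of 6 ratios above 0. The exception, Ccl1, was under background in both arrays, and Ccl12, among those above 0, was under it after PBS. The next run on that chromosome, Ccl5, Ccl9, Ccl6, Ccl3 and Ccl4, had 4 of 5 above 0, and the exception was Ccl5 at -0.49. On chromosome 9, 5 of the 6 receptors from Ccr9 to Ccr2 were above 0, with Ccr1 at -0.04. Of those above 0, Xcr1 and Ccr3 were under background in both arrays, and Ccr9 and Cxcr6 were under it after PBS. On chromosome 5, the run of Cxcl5, Cxcl3, Cxcl15, Cxcl1 and Cxcl2 spread from -0.61 to 0.49, with 3 of 5 below 0. Members of a run are similar in sequence, and how far their probe sets share signal was not tested.

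**Figure D5:**
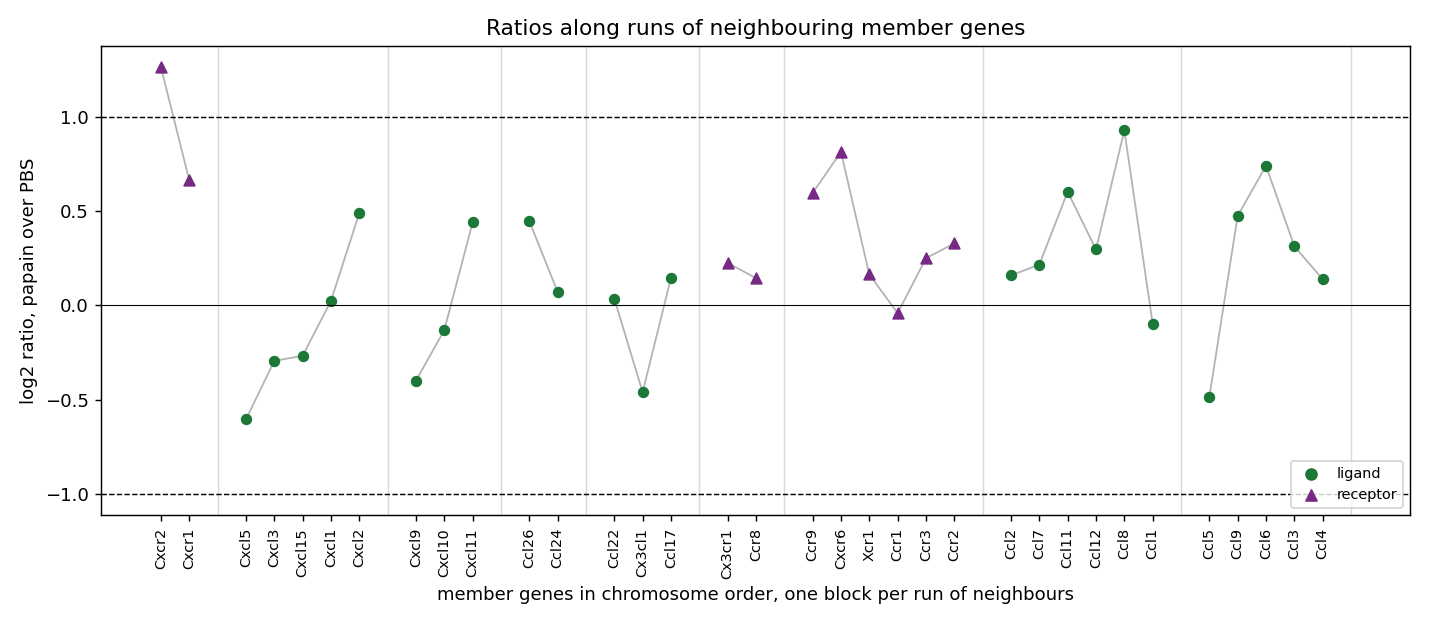
Log2 ratio of papain over PBS (y axis) of 34 members in chromosome order (x axis), 1 block for each of 9 runs of neighbours, with ligands as circles, receptors as triangles and dashed lines at 2-fold. In the block from Ccl2 to Ccl1, 5 of 6 ratios are above 0, and the block from Cxcl5 to Cxcl2 spans both sides of 0.

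Genes that act with chemokines and their receptors showed no member past 2-fold in either direction, against 1.83% and 0.730% of all named genes. The list of chemokine-related genes (further ligands and receptors, and genes that cleave or tether chemokines) had 17 measured members and a median log2 ratio of -0.14, with 5 above 0 and 12 below. Its largest ratios above background were -0.88 for Cmtm3, a member of a chemokine-like family, and -0.81 and -0.64 for Mmp9 and Mmp2, metalloproteinases that trim chemokines. Of the CXC ligands outside the symbol rule, Ppbp had 8.41 after papain and 8.07 after PBS, a ratio of 0.34. Pf4 had 5.69 after papain and 5.76 after PBS, a ratio of -0.07. The list of receptor signalling genes had 22 members and a median of -0.16, with 9 above 0. Gng2, a G protein gamma subunit, had 0.87, Arrb1, an arrestin that ends receptor signalling, had -0.60, and Fgr, a myeloid Src-family kinase, had -0.57 with the papain signal under background. The other arrestin of this list, Arrb2, went the other way, at 0.49.

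Receptors of other chemoattractants had 11 measured members and a median of 0.07, with 7 above 0. The 2 past 1.5-fold, Cysltr2 at 0.77 and Fpr2 at 0.68, had both signals under background. S1pr1, the sphingosine-1-phosphate receptor of lymphocyte exit, had -0.44, the complement receptor C5ar1 had 0.36 with the PBS signal under background, and the leukotriene B4 receptor Ltb4r1 had -0.26. The list of NF-kB signalling genes and upstream cytokines had 18 members and a median of -0.17, with 12 below 0. Tnfaip2 had -0.67, Bcl3 -0.42 and Il1b, a cytokine that induces many chemokines, 0.51. The 11 interferon gamma response genes had a median of -0.03, with Gbp3 at 0.50, Psmb9 at 0.18 and Psmb8 at -0.11. The signs of the last list and of the other chemoattractant receptors turned in some alternative settings.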

How the data were processed

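Total RNA was labelled with biotin and hybridised to 1 array per group, per the labels' protocols. The log2 signals per transcript cluster that the authors deposited were used as given; the log2 scale was read from the values, whose median was 5.70 after papain and 5.64 after PBS. Per the submitters' processing notes, the tool was Transcriptome Analysis Console 4.0. Its background correction, summarisation and normalization steps, and the build, were not given in the sources used here, so a difference in total RNA between specimens could have been scaled away.

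Of 41345 clusters, 23521 carried 1 gene symbol, 1814 several and 16010 none, and only the first kind was named. The probe set with the highest mean signal stood for a gene. All 55 members matched a RefSeq gene by ID, and 0 had another symbol there. Of 34 genes of other tissues, 29 were measured and set the background level.

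The members, lists, pairs and motifs were chosen with earlier results of these data known. Described with values were members past 1.5-fold whose higher signal reached background, the 3 brightest of each role group, and a fixed set of 36 symbols of known axes; of each other list, up to 3 genes with the largest ratio among those whose higher signal reached background. Defining or abundant cell type markers, a few other members and a few other list genes were named in addition after their values were seen. Alternatives were quantile normalization, a median ratio of 0, loess (span 0.3), averaged probe sets, thresholds of 1.5-fold and 3-fold, and 2 filters on low values. The counting was tested on simulated data, with no planted change of 1.5-fold or 2-fold. That checks the code and not the error of these arrays. Python 3.11.15, numpy 2.4.6, pandas 2.3.3, statsmodels 0.14.6 and matplotlib 3.10.9 were used.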

Additional observations from a re-analysis of the deposited data

How the results depend on the processing

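Of the 55 members, Cxcr2 alone stayed past 2-fold under quantile normalization, a median ratio set to 0, loess, averaged probe sets and both filters on low values. Averaging and the filters could not change its ratio, because Cxcr2 has 1 probe set and the filters only select genes. It passed the filter at the median of named genes, 6.29, only through its papain signal of 6.85. Setting the median ratio to 0 moved every member by the same 0.03. All alternatives use the same 2 arrays. The count of members was 7 higher and 1 lower at 1.5-fold, and 0 higher at 3-fold. At 1.5-fold the chemokine-related list had 3 of 17 lower, receptor signalling 1 higher and 1 lower of 22, other chemoattractant receptors 2 of 11 higher and NF-kB genes 1 of 18 lower, against 5.38% higher and 4.34% lower of all named genes. After quantile normalization and after loess, 6 members were past 1.5-fold higher and 0 lower. The medians of the 7 role groups kept their signs under each alternative; that of Cx3cl1 and Xcl1 became -0.46 when the filter at the median of named genes, 6.29, left Cx3cl1 alone. The median of other chemoattractant receptors turned to -0.0836 under either filter on low values. That of interferon gamma response genes turned to 0.0088 under quantile normalization, 0.0038 with the median ratio at 0, 0.0502 after loess and 0.0308 with both signals at background; the cause was not tested. Single members with ratios of at most 0.07 in size changed sign in places, 4 under quantile normalization and 6 after loess, and Ccl27a became -0.36 with averaged probe sets. No paired analysis was possible because each group has 1 array. With 17 of 55 members having a signal under background, signal over background limits those ratios.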
